A study of Mus musculus with 5 samples.

Results

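The comparison described here is that of mouse muscle on day 7 after cardiotoxin with uninjured muscle, across every miRNA measured, 213 tested and 4 given as bounds, which are also all the miRNAs of the series. Members were all assays with a day 7 and a baseline value, and the 5 control RNAs of the panel were used for scaling only. Cardiotoxin, a snake venom peptide that lyses muscle fibres, was injected at 2.5 µM in 100 µl into the anterior compartment of both lower legs of C57BL/6J males aged 4 to 6 months, and the tibialis anterior was taken with 4 mice per time point. The labels name no allele or transgene in either arm, and baseline muscles received no injection, so the toxin and the injection itself cannot be told apart. The arms of day 4 and day 21 are used below only to show where day 7 stood apart from its neighbours in time.

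miRNAs are short RNAs that guide the silencing complex to messenger RNAs, mainly through pairing of the seed, bases 2 to 8 counted from the 5′ end. After cardiotoxin, dead fibres are cleared by inflammatory cells, satellite cells (the stem cells of muscle) divide and fuse, and young fibres with central nuclei grow while matrix and vessels are rebuilt. A week after the injury this second, fibre-building phase is under way in mouse muscle, and fibre miRNAs such as miR-1 and miR-133a, which are made as myoblasts differentiate, return as the new fibres mature.

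Mature sequences of RefSeq on build GRCm38.p6 were matched to 173 of the miRNAs, and those that carry the results are printed 5′ to 3′ with the seed in capitals. The first set holds the miRNAs encoded opposite the Rtl1 coding sequence in the imprinted Dlk1-Dio3 region, shown because they hold the largest tested rise and share no seed.
miR-433: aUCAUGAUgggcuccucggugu
miR-431: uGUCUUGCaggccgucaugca
miR-127: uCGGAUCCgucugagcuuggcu
miR-434-5p: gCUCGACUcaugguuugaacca
miR-434-3p: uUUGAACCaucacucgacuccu
miR-136: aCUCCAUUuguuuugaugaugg

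A second set comes from other imprinted loci, where both arms of the miR-335 hairpin were measured.
miR-335-5p: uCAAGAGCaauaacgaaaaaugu
miR-335-3p: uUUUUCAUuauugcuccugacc
miR-675-3p: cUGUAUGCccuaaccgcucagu
miR-296-5p: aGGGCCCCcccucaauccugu
miR-298: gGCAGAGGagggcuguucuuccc

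The third set shows families that share a seed and fell together, the miR-29 family with seed AGCACCA and the miR-30 family with seed GUAAACA, which miR-384-5p also carries.
miR-29a: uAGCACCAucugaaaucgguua
miR-29b: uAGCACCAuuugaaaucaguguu
miR-29c: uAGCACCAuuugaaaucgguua
miR-30a: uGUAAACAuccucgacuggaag
miR-30c: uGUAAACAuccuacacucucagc
miR-30e: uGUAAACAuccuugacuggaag
miR-384-5p: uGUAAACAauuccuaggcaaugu

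In the fourth set the seed CCCUGAG is shared by miRNAs that did not move alike at day 7.
miR-351: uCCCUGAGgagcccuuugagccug
miR-125a-5p: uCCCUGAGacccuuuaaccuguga
miR-125b-5p: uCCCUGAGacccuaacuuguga

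The assay was TaqMan RT-PCR, which gives the threshold cycle (Ct) at which product becomes visible, and an earlier cycle stands for more RNA. There were 4 Ct values per assay in either arm. No mouse is named for any value, and the 4 were treated here as the 4 animals. Should they include technical repeats, the p-values reflect only the spread of the measurement. Raw day 7 values lay between Ct 10.94 and 31.77, whereas 14 baseline values lay at or over Ct 35, the limit used here for detection. On the raw scale the median miRNA was higher at day 7 by 1.19 on the log2 scale, and changes below are given relative to it: each value was shifted by the median change of the miRNAs under Ct 35 in all 24 values of the 6 arms, and the shifted Ct is called the scaled Ct. A difference of 1 cycle is read as 1 on the log2 scale, which assumes a doubling per cycle.

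The control RNAs did not move together. U6, a spliceosomal RNA and the marked endogenous control, had Ct 14.65, 15.17, 14.92 and 14.60 at baseline and 12.74, 14.15, 14.44 and 12.87 at day 7, so its day 7 values fell into an early and a late pair. Relative to the median miRNA, U6 changed by 0.09, the small nucleolar RNA snoRNA135 by 1.17, U87 by -0.13, snoRNA202 by -0.65 and the cytoplasmic RNA Y1 by -1.10 on the log2 scale. Because of that spread, the words rose and fell are kept for miRNAs with an adjusted p under 0.05 in limma's test on both scales, that of the median miRNA and that of U6. The median residual SD (log2) was 0.264 when scaled to the median miRNA and 0.636 when scaled to U6.

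**Figure D1:**
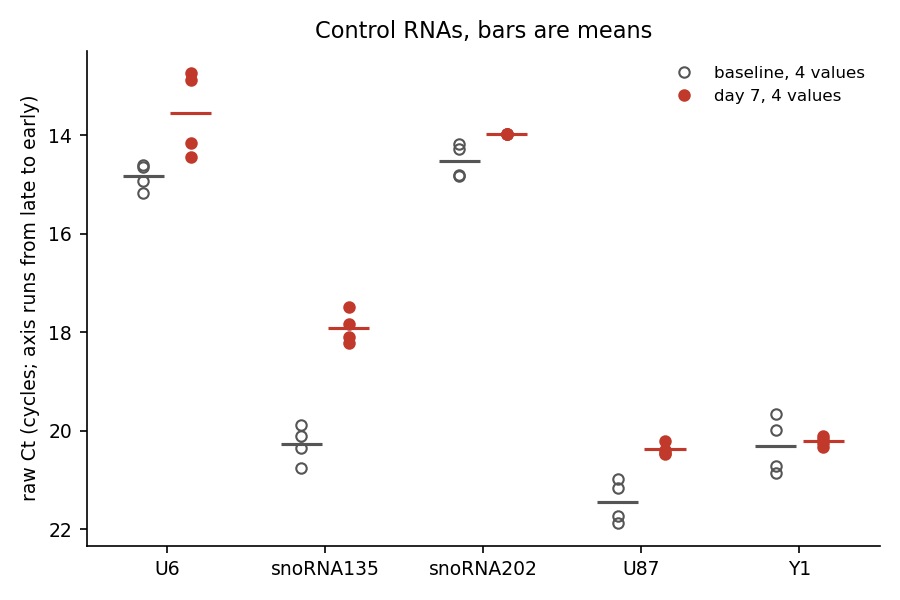
Raw Ct of the 5 control RNAs on an axis that runs from late to early cycles, with the 4 baseline values as open circles, the 4 day 7 values as filled circles and bars at the means. snoRNA135 had earlier cycles at day 7 in all 4 values, Y1 overlapped baseline, and the day 7 values of U6 ranged from 12.74 to 14.44.

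By day 7, 67 of 213 tested miRNAs had risen and 76 had fallen under both scalings, which is 31.5% and 35.7% of those tested. Relative to the median miRNA alone 86 (40.4%) were higher and 90 (42.3%) lower, and relative to U6 alone 67 (31.5%) were higher and 77 (36.2%) lower. Of the calls relative to the median miRNA, 48.9% were higher, against 46.5% with U6, 28.3% with snoRNA135, 61.8% with snoRNA202, 75.3% with Y1 and 74.1% on raw Ct. With those scalings the median of all 213 changes lay at -0.03, -1.11, 0.72, 1.17 and 1.26 on the log2 scale, with 0.20 for U87 and -0.21 after quantile scaling. The baseline and day 7 values did not overlap for 85 miRNAs that were higher (39.2% of all measured) and 88 that were lower (40.6%). Nor did they overlap for any of the 67 risen or 76 fallen miRNAs. Those were picked by a test on the same values, so this adds no support to the calls.

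Under both scalings rises were fewer and larger than falls, but the order of the counts depends on the scale. More miRNAs were called higher than lower with snoRNA202 (110 and 68), with Y1 (116 and 38) and on raw Ct (123 and 43). Among the risen miRNAs 52 of 67 changed at least 4-fold and 9 at least 32-fold, against 33 of 76 and 0 among the fallen. The median baseline Ct was 27.27 for the risen and 19.89 for the fallen, and 12 of the risen but 0 of the fallen had a mean baseline Ct over 30. Every miRNA measured was detected at day 7, with no Ct over 31.77, whereas 4 were not detected at baseline. The assays present thus left little room for falls from a late baseline Ct, and none for a miRNA lost by day 7. Ct also depends on how well each assay works, so a Ct of one assay is not a level that can be set against another's. In the plot of change by baseline Ct the rises spread upward toward late baseline cycles, while the falls stay close to 0 by comparison.

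**Figure D2:**
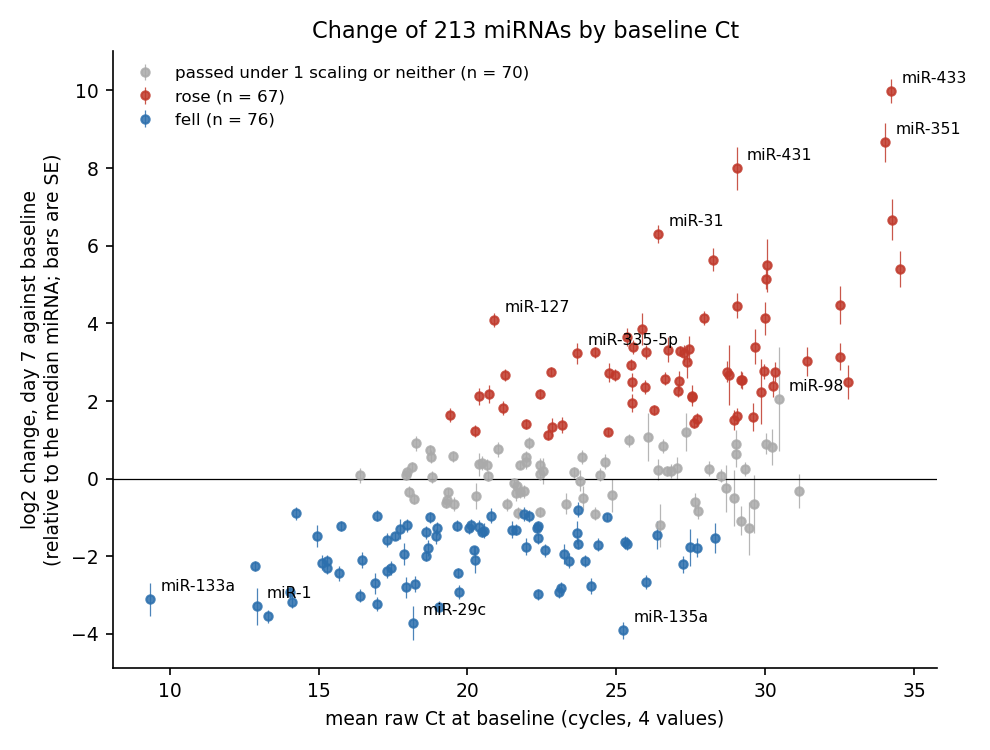
Log2 change at day 7 against baseline, relative to the median miRNA, plotted against the mean raw baseline Ct in cycles for 213 miRNAs, with bars for the standard error and colours for the call. The 9 rises over 32-fold had baseline Ct values from 26.4 to 34.5, and the largest fall, that of miR-135a, was -3.91.

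The label of the tissue was checked against its defining miRNAs. miR-133a and miR-1, made in striated muscle, had mean raw Ct 9.35 and 12.92 at baseline and 11.27 and 15.02 at day 7, far from the limit of detection in both arms. miRNAs of other cell types were detected as well, and their mean scaled Ct differed between the arms. The myeloid and lymphoid members moved both ways, as given below. The mean scaled Ct of 9 myeloid and lymphoid miRNAs ran from 21.19 to 21.45 over the baseline values and from 20.67 to 20.98 over the day 7 values. That of 4 fibroblast miRNAs ran from 21.86 to 22.60 and then from 20.27 to 20.80, that of 4 endothelial and smooth muscle miRNAs from 14.92 to 15.03 and then from 17.43 to 17.83, and the red cell miR-451 from 19.31 to 21.31 and then from 21.93 to 23.23. The part of a changed mix of cells in the results below was not tested. In bulk muscle fewer cells of a type and less of a miRNA per cell cannot be told apart.

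**Figure D3:**
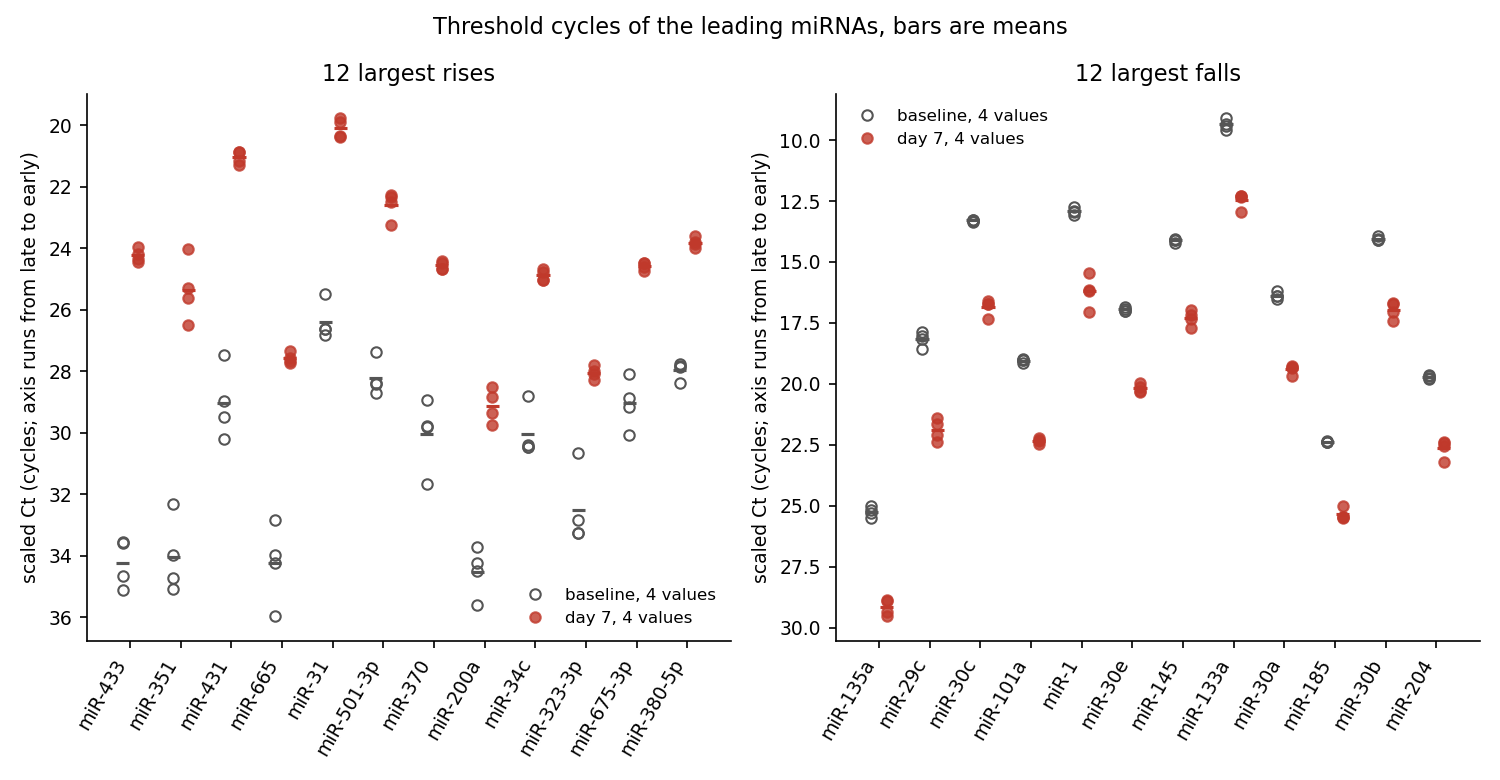
Scaled Ct in cycles, on axes that run from late to early, for the 12 largest rises and the 12 largest falls, with 4 baseline values (open) and 4 day 7 values (filled) each and bars at the means. In every column the 2 arms are apart, and the baseline values of miR-433, miR-351, miR-665 and miR-200a lie around cycle 34.

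The imprinted Dlk1-Dio3 region, whose miRNAs are expressed from the maternal chromosome and are abundant in embryos, held the largest tested rise of day 7. Of its 30 tested miRNAs 29 rose and 0 fell, with a median change of 3.12, where 31.5% of all tested miRNAs rose and their median change was 0.06. The exception under U6 was miR-337-3p, at 0.99 ± 0.17 (SE, 4 values per arm) with adjusted p = 1.92e-05 on the median scale but 0.0838 on that of U6. Under snoRNA135, the scaling least favourable to rises, 26 of 30 were still called higher and the median was 1.95, with miR-337-3p at -0.18. The 28 members with a position were on the plus strand of chr12 between 109585818 and 109743784, a span of 158 kb that is not contiguous in the assays measured.

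Within it, all 6 miRNAs encoded antisense to Rtl1, a retrotransposon-derived gene that they silence on the maternal chromosome, rose. miR-433 (chr12:109591781-109591802) had scaled Ct 33.54, 34.65, 35.11 and 33.58 at baseline and 24.18, 24.34, 23.96 and 24.44 at day 7. All day 7 values were more than 9 cycles earlier than any baseline value, a change of 9.99 ± 0.31 or 1020-fold (adjusted p = 5.09e-17; 9.90 relative to U6). Its baseline Ct lies at the limit of detection, so the fold starts from a level that the assay hardly measures.

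miR-431 (chr12:109590459-109590479), known to act on Pax7 and Smad4 in myogenic cells, went from scaled Ct 27.48, 30.21, 29.49 and 28.96 to 20.87, 21.15, 20.88 and 21.28. It rose by 7.99 ± 0.55 (254-fold, adjusted p = 1.34e-11; 7.90 relative to U6), and its spread narrowed from an SD of 1.16 at baseline to 0.20 at day 7. miR-127, the miRNA that cleaves Rtl1 mRNA, was well above detection in both arms, at 20.91, 20.80, 20.86 and 21.00 and then 16.78, 16.57, 16.53 and 17.38. That is a rise of 4.08 ± 0.18 (16.9-fold, adjusted p = 9.93e-15), which does not lean on a late baseline Ct.

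The remaining members of this group rose less. miR-434-5p rose by 3.23 ± 0.22 and miR-434-3p, from the same hairpin, by 1.81 ± 0.18. miR-136 rose by 1.34 ± 0.23 (adjusted p = 1.95e-05, and 0.0126 relative to U6), with baseline values from 22.42 to 23.26 and day 7 values from 21.12 to 22.02. So closely neighbouring hairpins spanned a range from 1.34 to 9.99.

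Elsewhere in the region, around Meg3, Rian and Mirg, 23 of 24 tested miRNAs rose, with a median of 2.88 and a range from 0.99 to 6.67. miR-665 had scaled Ct 33.97, 34.23, 32.84 and 35.96 at baseline and 27.35, 27.73, 27.66 and 27.58 at day 7, a rise of 6.67 ± 0.53 (102-fold). miR-370 rose by 5.50 ± 0.68 (45.1-fold) from 28.94, 31.66, 29.83 and 29.79 to 24.67, 24.67, 24.48 and 24.42. Both had day 7 values close to each other after a widely spread baseline. miR-323-3p rose by 4.47 ± 0.49 and miR-380-5p by 4.14 ± 0.17. In the 3′ group from miR-379 to miR-410, 18 tested miRNAs of 17 hairpins had a position. These all rose, within the narrower range of 2.38 to 4.47. miR-376c and miR-544, which had no matched position, also rose and are not counted there, and miR-376c rose by less than this range.

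**Figure D4:**
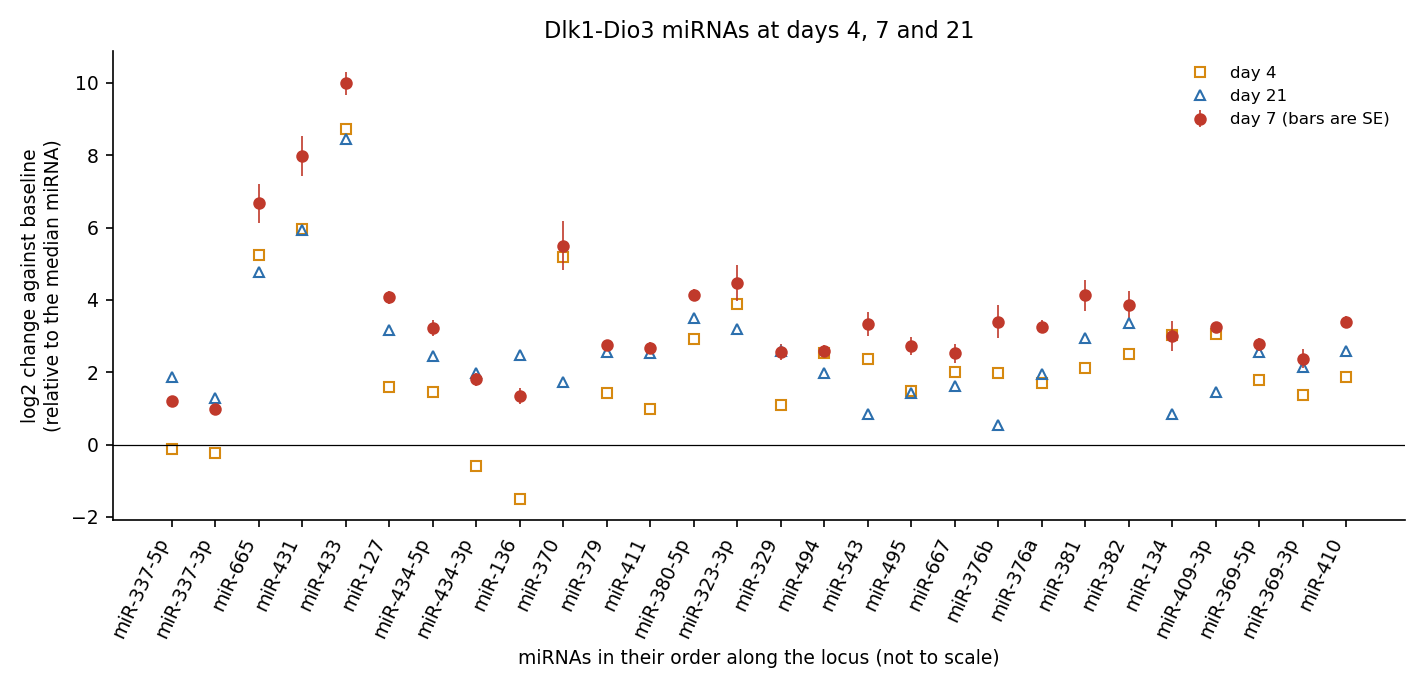
Log2 change against baseline, relative to the median miRNA, of the 28 Dlk1-Dio3 miRNAs with a position, in their order along the locus, at day 7 (filled, with standard errors), day 4 (squares) and day 21 (triangles), which share the baseline values. All day 7 values are above 0, the peak lies at miR-433, and day 4 was below 0 at miR-337-5p, miR-337-3p, miR-434-3p and miR-136.

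miRNAs of other imprinted loci rose too: all 4 tested members passed in that direction, where 31.5% of all tested miRNAs rose, with a median of 3.49. miR-335-5p and miR-335-3p come from an intron of Mest, a paternally expressed gene (chr6:30741314-30741336 and chr6:30741354-30741375). miR-335-5p had scaled Ct 23.79, 23.80, 23.52 and 23.61 at baseline and 20.90, 20.06, 20.10 and 20.75 at day 7, and rose by 3.23 ± 0.27 (9.37-fold, adjusted p = 2.69e-10; 3.14 relative to U6). miR-335-3p rose by 3.65 ± 0.23, so both arms of the hairpin moved by a similar amount.

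miR-675-3p, cut from the maternally expressed H19 RNA, rose by 4.46 ± 0.33 (22.1-fold), from 30.06, 28.86, 29.17 and 28.08 to 24.48, 24.60, 24.49 and 24.74. miR-296-5p, of the Gnas locus, rose by 3.32 ± 0.32. Its neighbour miR-298 (chr2:174267553-174267575, minus strand) was undetected at baseline, with raw Ct 39.40, 35.89, 40.00 (the last cycle) and 38.49, and stood at 23.05, 23.33, 23.47 and 22.81 at day 7. With baseline set to Ct 35 it was at least 1600-fold higher, or 1500-fold by U6, a bound and not a test. The imprinted loci of this list had no member at or below baseline.

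3 more miRNAs were detected at day 7 but not at baseline. miR-147, made by macrophages on toll-like receptor signalling, was at least 17.7-fold higher, or 16.6-fold by U6, with raw Ct 29.06, 29.25, 29.71 and 29.27. The epithelial miR-429 was at least 9.68-fold higher, or 9.08-fold by U6, and miR-680 at least 27.1-fold, or 25.4-fold by U6. Baseline values under Ct 35 numbered 2 for miR-147, 2 for miR-680 and 1 for miR-429, so these bounds rest on uneven baselines.

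The rodent cluster in an intron of Sfmbt2, another imprinted gene, was divided. Of 6 tested members 3 rose and 0 fell, where 31.5% of all tested miRNAs rose and 35.7% fell. miR-467d, miR-467c and miR-467a rose by 3.14 ± 0.35, 2.75 ± 0.25 and 1.77 ± 0.12, while the other members lay between 0.19 and 0.89, with 1 of them passing relative to the median miRNA only. The list's median was 1.33, but 0.02 after quantile scaling and 0.16 relative to snoRNA135. These hairpins are near-identical copies, so an assay may read more than 1 of them.

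Clusters on the X chromosome contributed the next group of rises. The Clcn5 intron cluster rose as a whole, 6 of 6 with a median of 2.33, led by miR-501-3p at 5.64 ± 0.29 (50.0-fold, from 28.39, 28.43, 28.72 and 27.39 to 22.51, 22.28, 22.32 and 23.25), miR-500 at 3.30 ± 0.13 and miR-362-3p at 2.49 ± 0.23. In the miR-322 cluster 4 of 6 rose and 1 fell, where 31.5% of all tested miRNAs rose and 35.7% fell. Its members miR-322 and miR-503 are known to slow the cell cycle of myoblasts as they leave it. miR-351 had scaled Ct 32.31, 34.72, 35.09 and 33.98 at baseline and 25.30, 25.62, 26.49 and 24.04 at day 7. It rose by 8.66 ± 0.51 (405-fold, adjusted p = 9.89e-13; 8.57 relative to U6), again from a baseline near the limit.

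miR-542-3p, miR-503 and miR-542-5p rose by 2.54 ± 0.22, 2.36 ± 0.18 and 1.62 ± 0.20. miR-450a-5p was at 0.84 ± 0.18, which passed relative to the median miRNA only and lay below 0 relative to snoRNA135 (-0.34) and after quantile scaling (-0.48). miR-322 itself fell by 1.25 ± 0.18 (adjusted p = 1.14e-06, and 0.016 relative to U6), from 20.23 to 20.54 at baseline to 21.37 to 21.79 at day 7. miR-322 (chrX:53054306-53054327) and miR-503 (chrX:53054027-53054049) are direct neighbours with opposite calls on both of these scales. Relative to Y1 and on raw Ct miR-322 was at -0.15 and -0.06 and did not pass, and 5 of the 6 were called higher and 0 lower.

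The fibre miRNAs were still low. Of 5 muscle-enriched miRNAs 4 fell, where 35.7% of all tested miRNAs fell, and the list's median was -1.77. miR-1 had scaled Ct 12.90, 12.96, 13.07 and 12.75 at baseline and 16.15, 16.17, 15.45 and 17.06 at day 7, and fell by 3.29 ± 0.47, 9.76-fold lower (adjusted p = 1.23e-06). miR-133a, made from the same transcripts as miR-1, went from 9.11, 9.41, 9.32 and 9.57 to 12.28, 12.28, 12.34 and 12.94, and fell by 3.11 ± 0.43. After quantile scaling the change of miR-133a was 0.00, since this scaling gives the earliest assay of every sample the same value.

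miR-133b, from a separate gene, fell by 1.48 ± 0.28 (0.66 after quantile scaling), less than miR-133a. miR-499, encoded in a slow myosin gene, fell by 1.77 ± 0.47, with day 7 values between 28.47 and 30.12. Relative to Y1 miR-133b and miR-499 were at -0.38 and -0.66, and on raw Ct at -0.29 and -0.58, and neither passed. miR-486, of an ankyrin gene and also made in red cells, was at -1.20 ± 0.56, which passed on the U6 scale (-1.29, adjusted p = 0.0122) and missed on the median scale (adjusted p = 0.054). Its call rests on 1 baseline value, since without the second it passed, with an adjusted p of 0.0397.

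The deepest falls lay outside this list. miR-135a (chr9:106154140-106154162, 1 of 2 loci) had scaled Ct 25.01, 25.17, 25.49 and 25.31 at baseline and 29.35, 28.85, 28.89 and 29.52 at day 7, and fell by 3.91 ± 0.21 (15.0-fold lower, adjusted p = 1.76e-13). The miR-29 family, known for repressing collagen messages, fell in all 3 members, where 35.7% of all tested miRNAs fell. miR-29c went from 18.14, 18.05, 18.58 and 17.86 to 21.40, 22.38, 22.09 and 21.65, and fell by 3.72 ± 0.43 (13.2-fold lower, adjusted p = 4.98e-08; -3.82 relative to U6). miR-29a fell by 2.16 ± 0.19.

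miR-29b fell by 0.80 ± 0.19 (adjusted p = 0.000482, and 0.0414 relative to U6), but lay at 0.31 relative to Y1 and 0.40 on raw Ct. 1 of the 2 loci of miR-29b (chr1:195037091-195037113) is next to that of miR-29c (chr1:195037600-195037621), and the fall of miR-29b was the smallest of the family. The 5 miR-30 miRNAs, abundant in differentiated tissue, all fell, and did so under each of the 8 scalings tried. Of all tested miRNAs 35.7% fell. miR-30c went from 13.27, 13.30, 13.27 and 13.35 to 16.71, 16.73, 16.61 and 17.34 and fell by 3.55 ± 0.17 (11.7-fold lower, adjusted p = 4.14e-14). miR-30e, miR-30a, miR-30b and miR-30d fell by 3.24 ± 0.18, 3.01 ± 0.16, 2.93 ± 0.15 and 2.43 ± 0.14, a tighter range than that of the miR-29 family.

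miRNAs of the vessel wall fell, 4 of 4 with a median of -2.42, where 35.7% of all tested miRNAs fell. Both arms of the miR-126 hairpin are among the 4. miR-145, of smooth muscle, fell by 3.18 ± 0.16, from 14.10, 14.22, 14.09 and 14.06 to 17.35, 17.16, 16.98 and 17.72. miR-143, its cluster partner, fell by 2.39 ± 0.17, and the endothelial miR-126-5p by 2.44 ± 0.20. miR-204, miR-185 and miR-101a, the last of which acts on Ezh2, fell by 2.92 ± 0.17, 2.98 ± 0.14 and 3.30 ± 0.16. In the pairs encoded side by side miR-193b fell by 2.69 ± 0.27, miR-365 by 1.94 ± 0.29 and the related miR-193 by 1.68 ± 0.17.

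The list of miRNAs known from satellite cells and myoblasts did not move one way: 1 of 13 rose and 6 fell, with a median of -0.66 that turned to 0.45 relative to Y1 and 0.54 on raw Ct. The riser was miR-31, which holds Myf5 mRNA back in quiescent satellite cells. It went from 26.83, 26.64, 26.63 and 25.48 to 19.89, 20.34, 20.37 and 19.78 and rose by 6.30 ± 0.24 (78.8-fold, adjusted p = 1.81e-15; 6.21 relative to U6). miR-26b and miR-195 fell by 2.31 ± 0.18 and 1.48 ± 0.11. miR-489, also known from quiescent satellite cells, was among those that fell, so it moved opposite to miR-31. The list thus held 1 large rise beside falls in 6 members, where 31.5% of all tested miRNAs rose and 35.7% fell.

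miRNAs tied to growth control were mixed. In the miR-17-92 cluster and its paralogues 1 of 11 rose and 1 fell, against 31.5% and 35.7% of all tested miRNAs. The median was 0.10 (-1.07 relative to snoRNA135). miR-18a rose by 2.94 ± 0.15 (7.69-fold), while the 5 measured miRNAs cut from the same transcript on chr14 lay at 0.76 or below, the lowest being miR-92a, which fell by 1.00 ± 0.14 (0.10 relative to Y1, 0.19 on raw Ct). miR-34c, a p53 target, rose by 5.15 ± 0.26 (35.5-fold) from 30.47, 30.41, 30.45 and 28.81 to 24.77, 25.04, 25.05 and 24.68, and miR-34b-3p by 2.67 ± 0.16. miR-34a, from another chromosome, was at 0.57 ± 0.13, passed relative to the median miRNA only, and lay at -0.60 relative to snoRNA135.

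Of the let-7 family, which rises as cells differentiate, 4 of 9 fell and 0 rose. For this and the next lists the share of all tested miRNAs was 35.7% fallen and 31.5% risen. The let-7 median of -0.37 was positive relative to snoRNA202 (0.29), Y1 (0.74) and on raw Ct (0.83). let-7g and let-7d fell by 1.48 ± 0.19 and 1.38 ± 0.17. miR-98 had the largest change of the family, 2.05 ± 1.34, and did not pass (adjusted p = 0.161), with baseline values 29.98, 29.02, 36.31 and 26.50 around day 7 values of 26.83, 28.84, 29.07 and 28.87. Of the family of miR-15, miR-16, miR-195 and miR-497, 4 of 6 fell and 0 rose (median -1.11, 0.08 on raw Ct), and miR-16 fell by 2.13 ± 0.17. In the miR-99/100 and miR-125 list 2 of 7 fell. miR-100 fell by 2.80 ± 0.27 and miR-99a fell by 1.78 ± 0.20, and the median of -0.61 was 0.04 relative to snoRNA202, 0.49 relative to Y1 and 0.58 on raw Ct.

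Smaller lists with a divided result were those of miR-23, miR-27 and miR-24 and of miR-103 and miR-107. Of the first 2 of 4 fell, miR-23b by 1.75 ± 0.21 and miR-24 by 0.89 ± 0.17, although miR-24 lay at 0.21 relative to Y1, 0.30 on raw Ct and 1.51 after quantile scaling, and the list's median of -0.73 was 0.38 relative to Y1, 0.47 on raw Ct and 0.27 after quantile scaling. miR-27b, at -0.56 ± 0.13, passed relative to the median miRNA only. The falls in both lists stand beside 35.7% of all tested miRNAs. miR-103 fell by 1.39 ± 0.30, whereas miR-107, a near-identical miRNA, was at -0.25 ± 0.60 (0.40 relative to snoRNA202, 0.85 relative to Y1 and 0.94 on raw Ct), and the median of the pair was 0.28 relative to Y1 and 0.37 on raw Ct. Near-identical sequences can be read by each other's assay, so such pairs are uncertain as single miRNAs.

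Among miRNAs of blood cells 3 of 9 rose and 3 fell, with a median of 0.75 (-0.42 relative to snoRNA135). These counts lie near the shares of all tested miRNAs, of which 31.5% rose and 35.7% fell. miR-142-3p, a miRNA of the haematopoietic lineages, rose by 2.18 ± 0.23 (4.55-fold), from 21.24, 20.71, 20.27 and 20.64 to 18.88, 18.28, 18.14 and 18.82, and miR-142-5p by 2.11 ± 0.15. miR-342-5p rose by 3.02 ± 0.38. The 3 that fell were miR-150, abundant in lymphocytes, and miR-155 and miR-146b, which are induced by inflammatory signals, chosen here after their values were seen. They fell by 2.10 ± 0.21, 1.21 ± 0.15 and 1.28 ± 0.16. Relative to Y1 and on raw Ct miR-155 was at -0.11 and -0.02 and miR-146b at -0.18 and -0.09, none of which passed, so of the 3 falls that of miR-150 alone kept its call there. In the other direction, miR-223 and miR-146a, which shares its seed with miR-146b, passed as higher relative to the median miRNA only. The red cell miR-451 fell by 2.09 ± 0.35.

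Fibroblast miRNAs gave 3 rises in 4, where 31.5% of all tested miRNAs rose, with a median of 1.43. miR-21, a miRNA of activated fibroblasts, rose by 1.64 ± 0.18 and miR-214 by 1.23 ± 0.16. miR-199a-5p was at 2.24 ± 0.84 and passed with an adjusted p of 0.0184. Without the second baseline value it was at 1.65 with an adjusted p of 0.0821, and without the fourth day 7 value at 1.96 with an adjusted p of 0.0554, so its call rests on these. Under snoRNA135 none of the 4 was called higher and 1 was called lower.

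Of the miR-200 family and miR-203, listed as epithelial, 3 of 5 rose and 1 fell, against 31.5% and 35.7% of all tested miRNAs. miR-200a rose by 5.40 ± 0.47 (42.3-fold) from 34.51, 35.59, 34.25 and 33.73, at the limit of detection, to 28.52, 29.76, 29.36 and 28.83. miR-141 and miR-200b rose by 2.48 ± 0.44 and 1.59 ± 0.35, but after quantile scaling miR-141 was at -0.78, as was the median of the list. miR-203, a skin miRNA chosen here after its values were seen, fell by 0.91 ± 0.18. That fall turned to 0.20 relative to Y1 and 0.29 on raw Ct, and under snoRNA202, Y1 and raw Ct 4 of the 5 were called higher and 0 lower. miR-182 rose by 2.14 ± 0.27.

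Lists of other tissues moved little or down. Of the neuronal miRNAs 1 of 3 fell, near the 35.7% of all tested miRNAs. It was miR-132, by 1.19 ± 0.16 (0.01 on raw Ct), while miR-128a and miR-9 were at -0.34 ± 0.17 and 0.23 ± 0.27. miR-9 was at -0.95 relative to snoRNA135 and -1.08 after quantile scaling. The neuronal median of -0.34 was positive relative to snoRNA202 (0.31), Y1 (0.76) and on raw Ct (0.85). miR-194 and miR-192, listed for liver, fell by 1.94 ± 0.25 and 1.54 ± 0.14.

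**Figure D5:**
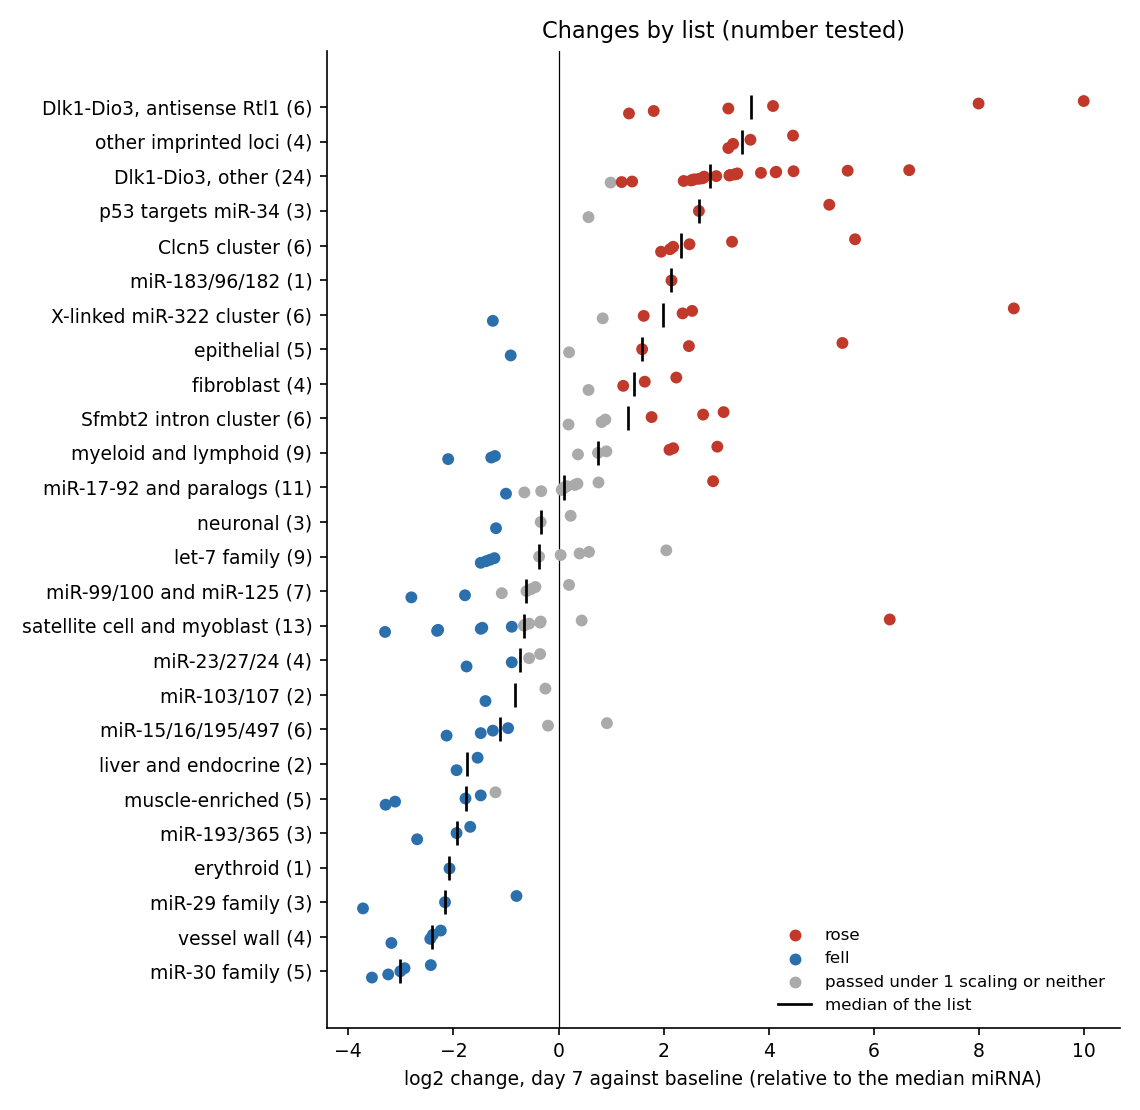
Log2 change at day 7 against baseline, relative to the median miRNA, for the tested miRNAs of 26 lists ordered by their median (black bar), with the number tested in brackets and colours for the call. Lists above 0 in every member include those of imprinted loci, the Clcn5 cluster, fibroblasts and the miR-34 miRNAs. Lists below 0 in every member include the miR-30, vessel wall, miR-29, miR-193 with miR-365 and muscle-enriched lists. They also include those of miR-23, miR-27 and miR-24, of miR-103 and miR-107, and of liver.

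Against day 4, most Dlk1-Dio3 miRNAs and several fibre miRNAs were higher on day 7, while the balance of all calls depended on the scale. Relative to the median miRNA 52 (24%) were higher on day 7 and 56 (25.8%) lower. Under both scalings 35 (16.1%) were higher and 2 (0.922%) lower, so nearly all of the lower calls were not shared by U6. The U6 scale set day 7 higher against day 4 than the median scale did. miR-101a, for example, was at 0.41 relative to U6 and -0.17 relative to the median miRNA. Of the 30 Dlk1-Dio3 miRNAs 23 were higher under both, against 16.1% of all miRNAs, and 0 were lower. The largest of these differences were those of miR-136 at 2.84 (adjusted p = 4.13e-09), miR-127 at 2.50 (adjusted p = 1.28e-09) and miR-434-3p at 2.39 (adjusted p = 1.61e-09).

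The fibre miRNAs miR-499, miR-1 and miR-133a were higher than on day 4 by 2.18, 1.48 and 1.41, under both scalings, while miR-133b was higher by 0.22 and did not pass (adjusted p = 0.538). The 2 miRNAs lower than on day 4 under both scalings were miR-351, by -3.04 (adjusted p = 5.05e-05), and miR-188-5p of the Clcn5 cluster, by -1.86. For miR-31, miR-34c and miR-501-3p the day 7 level minus the day 4 level was -0.20 ± 0.24, 0.05 ± 0.26 and -0.08 ± 0.29 (SE), and none passed. All 11 miRNAs of the miR-17-92 list were lower than on day 4 relative to the median miRNA, but 0 of 11 under both scalings.

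From day 7 to day 21, 83 miRNAs (38.4%) were higher at the later time and 70 (32.4%) lower on the median scale, and 42 (19.4%) and 31 (14.4%) under both scalings. All 5 miR-30 miRNAs were higher on day 21 under both, by up to 2.23 for miR-30a, as were all 4 vessel wall miRNAs, miR-29c (1.97), miR-29a (1.06), miR-1 (1.85), miR-133a (1.84) and miR-204 (2.42). These were miRNAs that were low on day 7. In the other direction miR-298 was lower on day 21 by -6.55, miR-351 by -5.48, miR-200a by -4.28 and miR-370 by -3.76.

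The Dlk1-Dio3 miRNAs were divided by day 21, with 10 of 30 lower than on day 7 under both scalings, 1 higher and the rest without a call. miR-433 and miR-431 were lower by -1.55 (adjusted p = 0.000167) and -2.06 (adjusted p = 0.00233), and the one that was higher was miR-136, by 1.16 (adjusted p = 0.00019). For miR-31, miR-34c and miR-335-5p the day 21 level minus the day 7 level was 0.20, -0.58 and -0.08, and none passed under both scalings. miR-29b, at -0.62 (day 21 minus day 7), did not pass under both, unlike the other members of its family.

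Calls were compared among miRNAs with the same seed. Of 27 seeds shared by 2 or more tested miRNAs, 77 in all, 2 seeds had only risen members, 5 only fallen members, and 0 had both a risen and a fallen member. Over all tested miRNAs 31.5% rose and 35.7% fell. Opposite calls need at least 2 called members, which some seeds lacked: the 6 miRNAs with seed AAAGUGC had 0 calls. Without regard to calls, 11 of the 27 held changes on both sides of 0. The 5 were those of miR-29, miR-30 with miR-384-5p, miR-10, miR-26 and miR-193. Magnitudes did differ within a seed. With seed CCCUGAG, miR-351 rose 405-fold, while miR-125a-5p and miR-125b-5p, printed above, were at -0.44 ± 0.34 and -0.52 ± 0.14 and did not pass under both scalings, with 0.66 and 0.59 relative to Y1, 0.75 and 0.68 on raw Ct, 0.21 and 0.14 relative to snoRNA202 and, for miR-125b-5p, 0.24 after quantile scaling.

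Both arms of a hairpin were tested for 17 hairpins. Their changes had the same sign in 16 and lay within 1 of each other on the log2 scale in 12, with a median difference of 0.44. The widest gap was that of miR-342 (chr12:108658638-108658659 for the 5p arm and chr12:108658680-108658702 for the 3p arm), where the 5p arm rose by 3.02 ± 0.38 and the 3p arm was at 0.37 ± 0.29 (adjusted p = 0.242). In miR-199a the arms were at 2.24 ± 0.84 (5p) and 0.57 ± 0.16 (3p, -0.61 relative to snoRNA135). The difference between arms was not tested. In miR-142, miR-331 and miR-532 both arms differed by less than 0.1.

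By position, 20 groups of 2 or more hairpins on a strand with gaps under 10 kb could be formed from the 170 tested miRNAs with a position, a miRNA of several loci being placed at the one listed. In 6 groups some members rose and none fell, in 8 some fell and none rose, in 4 neither occurred, and 2 held both. Those 2 were the miR-17-92 cluster and the miR-322 cluster. On chromosome 12, 28 of 33 tested miRNAs rose and 3 fell, and on the X chromosome 9 of 21 rose and 3 fell, beside 55 of 170 and 58 of 170 over all positions. The median GC content of the mature sequence was 47.6% for the risen and 43.5% for the fallen, with the same lower quartile of 40.9%.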

How the data were processed

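The deposited values are raw threshold cycles (Ct) of TaqMan RT-PCR run for 40 cycles, with 4 values per assay and arm and no normalization by the authors, per the labels and the file headers. The Ct threshold setting is not given in the sources used here. Baseline has no sample of its own, and the same 4 baseline values serve each time point. Days 2 and 5 were not analysed here. From the deposited Ct, log2 changes were computed as the negative Ct difference, scaled to the median miRNA and, separately, to U6. limma 3.58.1 in R 4.3.3 (lmFit and eBayes) was fitted to all 6 arms, with Benjamini-Hochberg adjustment over all miRNAs tested, and was tested on simulated data. A miRNA was tested where at least 3 of 4 values lay under Ct 35 in both arms, which held for 213, and the other 4 were given as bounds with the undetected arm at Ct 35. The number of values limits the precision, and a Ct near 35 is imprecise.

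Members and the 26 lists were chosen with earlier results of these data known. The miRNAs named with values were the 12 largest rises, the 12 largest falls, all members of the 6 lists of most interest (antisense Rtl1, other imprinted loci, muscle-enriched, miR-29, miR-30 and the miR-322 cluster), at most 3 leading members from any other list, the miRNAs detected in 1 arm only, and the control RNAs. A further 14 outside this rule were named after their values were seen. Old assay names without an arm were matched to the mature miRNA that the name stood for. Alternatives were 5 control RNAs as scale, raw Ct, quantile scaling, scaling by arm means, other Ct limits, fold thresholds, only the arms compared, a trend with robust prior, leaving out each value, and, chosen after seeing the data, averaging the most alike day 7 values.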

Additional observations from a re-analysis of the deposited data

Results flagged for a closer look

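Among 218 sets of 4 values tested for a value far from the other 3, 17 had a gap to the nearest value, divided by the whole range, above Dixon's 95% limit, and chance gives about 1 in 20. At day 7 the fourth value stood apart for miR-133a (0.906, scaled Ct 12.94 against 12.28 to 12.34), miR-185 (0.898), miR-30a (0.856), miR-30c (0.832) and miR-199a-5p (0.968, 26.75 against 27.88 and later). For miR-133a, miR-30a and miR-30c that value was the lowest level of the arm, and for miR-185 and miR-199a-5p the highest. The first day 7 value stood apart for miR-98 (0.899, 26.83 against 28.84 and later) and miR-450a-5p (0.916), and the second for miR-467d (0.846).

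At baseline the fourth value was the highest level for miR-31 (0.849, scaled Ct 25.48 against 26.63 and later) and miR-34c (0.964, 28.81 against 30.41 and later). The first stood apart for miR-128a (0.85), miR-323-3p (0.837, 30.67 against 32.85 and later) and miR-34a (0.873), the third for miR-337-3p (0.863), and the second for miR-194 (0.907), miR-380-5p (0.854) and miR-199a-5p (0.842, 31.63 against 29.47 and earlier).

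Day 4 and day 7 lay on opposite sides of baseline for 2 antisense Rtl1 miRNAs, and the difference between the days passed limma's test. miR-136 was at 1.33 on day 7 and -1.51 on day 4, a difference of 2.84 (adjusted p = 4.13e-09), and miR-434-3p at 1.81 and -0.58, a difference of 2.39 (adjusted p = 1.61e-09).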

How the results depend on the processing

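No paired analysis was possible because the values carry no animal or replicate number. Relative to the median miRNA, 86 miRNAs were higher at day 7 than at baseline, against 53 with snoRNA135 and 52 at 4-fold or more, and 90 lower, against 38 with Y1, 43 on raw Ct and 33 at 4-fold (35 at 4-fold relative to U6). Leaving out 1 value gave 80 to 85 higher and 87 to 90 lower, or 62 to 69 and 59 to 85 relative to U6. Day 7 against day 4 gave 52 higher, against 82 with snoRNA202, 108 with Y1, 31 at 2-fold and 6 at 4-fold, and 56 lower, against 22 with snoRNA135, 32 with snoRNA202, 17 with U87, 4 with Y1, 31 on raw Ct, 2 with U6, 15 at 2-fold and 1 at 4-fold. Leaving out 1 value gave 41 to 55 and 51 to 55. Of the miRNAs tested, 38.4% were higher on day 21 than on day 7, against 17.6% with snoRNA202, 18.5% with U87, 6.94% on raw Ct, 19.9% with U6, 22.7% at 2-fold and 1.85% at 4-fold, and 32.4% lower, against 52.8% with snoRNA202, 66.2% on raw Ct, 14.4% with U6, 17.1% at 2-fold and 6.94% at 4-fold. Leaving out 1 value gave 37% to 38.9% and 30.1% to 31%. Signs that turned are given for named miRNAs with a call on the median scale or on the alternative scale. Of these, miR-128a, miR-125a-5p, miR-9 and miR-324-5p passed neither relative to the median miRNA nor relative to U6. Signs turned with Y1 for miR-125b-3p (0.02), miR-128a (0.76), miR-24 (0.21), miR-27b (0.54), miR-29b (0.31), miR-92a (0.10), miR-125b-5p (0.59), miR-203 (0.20) and miR-324-3p (0.12). On raw Ct signs turned for the same miRNAs (0.11, 0.85, 0.30, 0.64, 0.40, 0.19, 0.68, 0.29 and 0.20), miR-132 (0.01) and miR-125a-5p (0.75). They turned with snoRNA135 for miR-19a (-0.42), miR-34a (-0.60), miR-450a-5p (-0.34), miR-9 (-0.95), miR-199a-3p (-0.61), miR-324-5p (-1.02) and miR-337-3p (-0.18), with snoRNA202 for miR-27b (0.09) and miR-125b-5p (0.14), and after quantile scaling for miR-133b (0.66), miR-141 (-0.78), miR-24 (1.51), miR-27b (0.14), miR-450a-5p (-0.48), miR-9 (-1.08) and miR-125b-5p (0.24), with miR-133a at 0.00. A further 14 kept their sign but lost their call with Y1 and 11 on raw Ct, all of them falls. Beyond the construction of each scale the cause was not tested. Of the 100 named miRNAs with a test, all kept direction and side of the threshold with a Ct limit of 38 or none, and all 93 still tested did so with a limit of 32. With day 7 values 2 and 3 averaged, chosen after seeing the data, 99 did. Leaving out 1 value, miR-125b-3p lost its call without the first baseline value (-0.82, adjusted p = 0.0677), and miR-128a gained one without day 7 value 2 (-0.45) or 3 (-0.44). Late baseline Ct limits the precision of the largest folds.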

Other observations

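The hairpins of miR-345 and miR-324, outside the lists, were chosen here after their values were seen. miR-345-5p fell by 2.82 and miR-345-3p, from the same hairpin, by 1.53, on the log2 scale. miR-345-3p did not pass relative to Y1 (-0.43) or on raw Ct (-0.34). The 2 arms of miR-324 were at 0.16 ± 0.13 (5p) and -0.99 ± 0.11 (3p), and only the 3p arm passed under both scalings. The 3p arm was at 0.12 relative to Y1 and 0.20 on raw Ct, and the 5p arm at -1.02 relative to snoRNA135 and -0.12 after quantile scaling.

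snoRNA202 gave day 7 raw Ct values of 13.98, 13.97, 13.97 and 13.98, an SD of 0.01, against 0.34 at baseline and 0.87 for U6 at day 7. Over all assays day 7 values 2 and 3 differed by a median of 0.11 cycles, against 0.26 to 0.33 for the other pairs of that arm and 0.18 to 0.57 for baseline pairs. U6 placed values 2 and 3 later than values 1 and 4, while miR-335-5p placed them earlier in scaled Ct.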
